A study of Mus musculus with 24 samples.

Results

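Clustered protocadherins are neuronal cell-surface adhesion proteins encoded in 3 neighbouring gene clusters, and they were examined here in the dentate gyrus of mice at the level of DNA methylation. All genes of the GENCODE M21 annotation whose names start with Pcdha, Pcdhb or Pcdhg were taken, which gave 58 genes of 21854 with a window. The window of a gene was its first exon plus the 1000 bases upstream. The clusters lie on chromosome 18 of mm10, Pcdha at chr18:36930184-37187661, Pcdhb at chr18:37264938-37524479 and Pcdhg at chr18:37661793-37841873. They hold 14, 22 and 22 genes. The rule used names and positions only, and no measured value.

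Each alternate gene of the Pcdha and Pcdhg clusters has its own promoter and its own large variable first exon, which encodes the extracellular cadherin repeats and the transmembrane segment and is spliced to constant exons at the end of the cluster. Single neurons switch on a few alternate genes in a largely random way, helped by the insulator protein CTCF and cohesin, and promoters that carry methylated CpGs are generally the silent ones. The C-type genes at the end of both clusters are controlled differently and are regulated more like ordinary neuronal genes. The Pcdhb genes have a single coding exon each and share no constant exons. The combination of isoforms on a cell gives it a surface identity that acts in dendrite self-avoidance, axon spacing and neuron survival.

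Methylation was measured by RRBS (reduced representation bisulfite sequencing), an assay limited to cytosines near the CCGG sites cut by MspI, in micro-dissected dentate gyrus of single female C57BL/6JRj mice. The table covers 19 mice in 3 groups. Young STD mice (n = 5) were 1.5 months old and lived in standard cages. Aged STD mice (n = 7) were 14 months old and had lived in standard cages, and Aged ENR mice (n = 7) were of the same age and had lived in an enriched environment, a large enclosure with toys and tunnels shared by a group, for most of their life. One more group, Young ENR, was described but is not analysed here. No gene was altered in any group, and no cell type was isolated, so each value is an average over all cells of the dentate gyrus.

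The values are methylation percentages per cytosine and mouse, and the number of reads behind each is unknown beyond the minimum of 10 reads that the authors required. Between 489813 and 725467 cytosines were measured per mouse. The mean young level of the cytosines that a mouse's library happened to contain, called the composition index here, was 31.6% ± 0.766 (SD) in Young STD, 26.6% ± 6.91 in Aged STD and 29.5% ± 3.88 in Aged ENR mice. Aged STD mice 3, 4 and 6 had the lowest values, at 19.6%, 20.8% and 19.5%. Both library number series in the labels, 27 and 37, contained mice of all 3 groups.

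A total of 733 cytosines belonged to the clusters, and all of them were in a CpG. Of these, 645 lay in a first exon, 36 in the upstream 1000 bases and 52 in the shared gene bodies, the stretches between and after the first exons. A mouse had between 483 and 724 of them, and 91 were measured in all 19 mice. Coverage differed by cluster. All 22 Pcdhg windows held at least 3 cytosines, but only 7 of 14 Pcdha and 9 of 22 Pcdhb windows did. A further 4 windows held 1 or 2, and 16 held none (6 Pcdha and 10 Pcdhb). The 16 windows without a cytosine contained 2 to 6 CCGG sites with a median of 4, against 4 to 20 with a median of 8 in the 38 windows with at least 3. Results per gene below concern these 38. Both genes that the annotation names Pcdha11 were among the windows without data.

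The clusters were ordered by methylation in every mouse over all their covered genes. Over all cytosines of their windows, Pcdhb genes were methylated at 64.4% ± 3.14 (SD, n = 19), Pcdhg genes at 35.6% ± 3.08 and Pcdha genes at 20.3% ± 2.54. Pcdhb lay above Pcdhg in 19 of 19 mice, by 28.8 points ± 3.37 (SD), and Pcdhg lay above Pcdha in 19 of 19 mice, by 15.3 points ± 2.73. The low Pcdha value was set by which of its genes were covered, because 69 of its 107 window cytosines lay in the 2 C-type genes. Among alternate genes this order of Pcdha and Pcdhg did not hold: alternate Pcdha lay above Pcdhga in 15 of 19 mice, by 4.58 points ± 5.46. It lay above Pcdhgb in 10 of 19 mice, with a mean difference of -2.26 points ± 6.34. Both differences were within their spread.

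Alternate and C-type genes stood far apart. Of the alternate Pcdha genes, Pcdha1 to Pcdha12, only Pcdha1, Pcdha3, Pcdha4, Pcdha5, Pcdha8 and Pcdha12 had a measured cytosine. Those covered were methylated at 46.9% ± 7.64 (SD, n = 19) and the 2 C-type Pcdha genes at 5.11% ± 2.15. In the Pcdhg cluster the Pcdhga genes were at 42.3% ± 4.29, the Pcdhgb genes at 49.2% ± 3.76 and the 3 C-type genes at 4.07% ± 2.07. Alternate genes exceeded C-type genes in 19 of 19 mice in both clusters. Pcdhgb exceeded Pcdhga in 18 of 19 mice, by 6.84 points ± 3.54. Alternate Pcdha and Pcdhgb did not differ beyond their spread, since alternate Pcdha was higher in 10 of 19 mice and the mean difference was -2.26 points ± 6.34. The drop at the end of both clusters is visible in the plot of window levels along the chromosome.

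**Figure D1:**
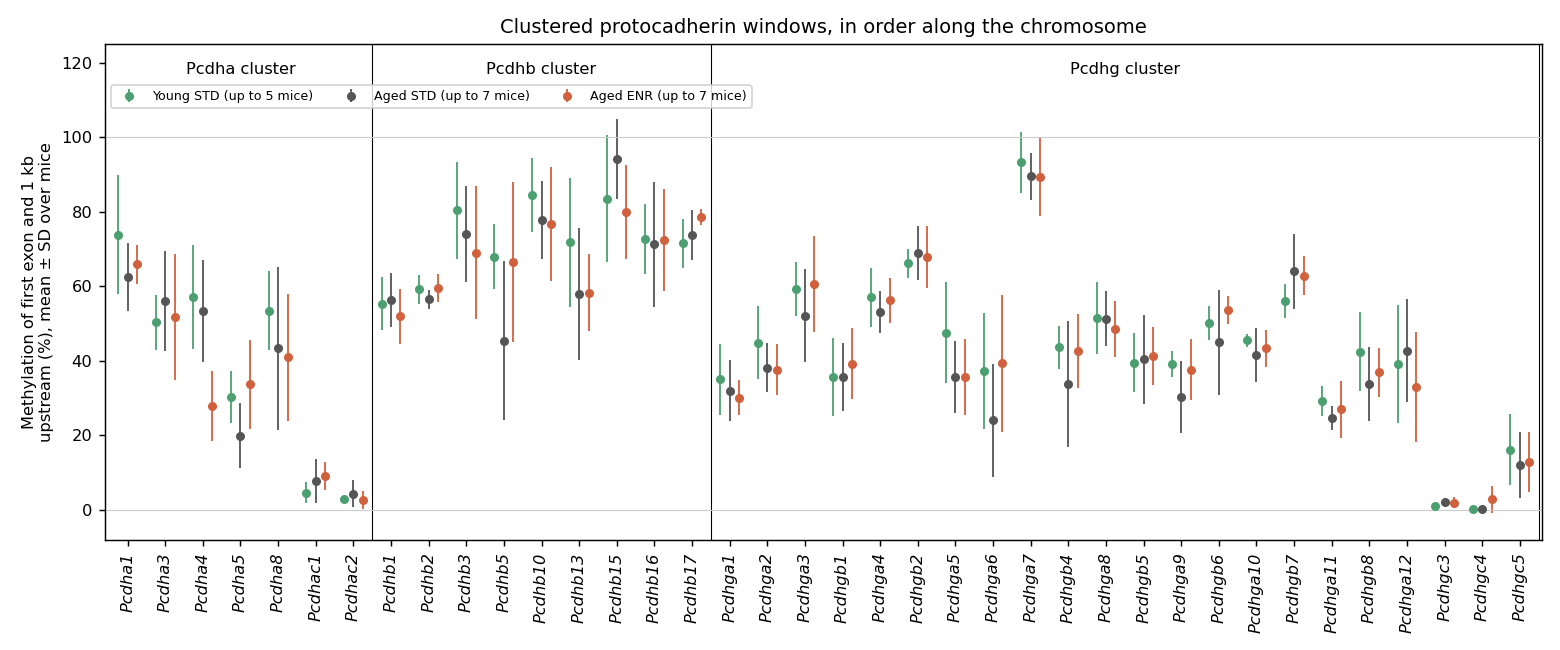
Methylation of the 38 windows with at least 3 cytosines, in percent, as mean ± SD over the mice of each group (green Young STD, grey Aged STD, orange Aged ENR), in order along the chromosome. Pcdhac1, Pcdhac2, Pcdhgc3, Pcdhgc4 and Pcdhgc5 lie between 1.12% and 13.4%, below every other window.

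Among the C-type genes, Pcdhgc4 was the least methylated window of the Pcdhg cluster. Pcdhgc4, whose product is needed for the survival of many neurons, was at 1.12% ± 2.44 (SD, n = 19) over 21 cytosines of the window around its first exon at chr18:37815079-37817983. Pcdhgc3, which shapes dendrites and binds the Wnt pathway protein Axin1, was at 1.74% ± 1.16 over 59 cytosines, the largest number in any window of the clusters. Pcdhac2, known for its part in the spacing of serotonergic axons and the lowest window of the Pcdha cluster, was at 3.35% ± 2.66 over 36 cytosines. Pcdhac1 followed with 7.37% ± 4.60 over 33 cytosines. Pcdhgc5 was the highest of the 5, with 13.4% ± 8.48 over 20 cytosines. The ranges over mice of all 5 overlapped, so the order of neighbours is not resolved.

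The alternate windows spread over most of the scale. Pcdhga7 was the highest window of the Pcdhg cluster, at 90.4% ± 8.35 (SD, n = 18) over 7 cytosines. Its Young STD mice had 93.6%, 95.3%, 79.4%, 97.1% and 100.6%. Values slightly above 100% or below 0% occur because a window's value in a mouse is fitted from incomplete cytosines and is not bounded. The lowest alternate Pcdhg window was Pcdhga11, with 26.7% ± 5.55 (n = 19) over 38 cytosines. Pcdha1 was the highest Pcdha window with 67.3% ± 11.01 (n = 16) over 9 cytosines, and Pcdha5, with 27.7% ± 11.1 (n = 19), was the lowest alternate one.

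In the Pcdhb cluster the range was narrower. Pcdhb15 was highest at 86.1% ± 14.1 (SD, n = 19) over 6 cytosines and Pcdhb1 lowest at 54.5% ± 7.12 over 22 cytosines. Pcdhb1 lies at chr18:37264938-37267525 at the start of the cluster. Its Young STD mice had 57.9%, 45.04%, 51.6%, 58.7% and 63.2%. Aged STD mice ranged from 45.9% to 67.2% with a median of 58.7%, and Aged ENR mice from 39.0% to 60.2% with a median of 52.7%. The 3 ranges overlapped.

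Partial methylation set these windows apart from the gene windows of the genome as a whole. Of all 12050 windows with at least 3 cytosines, 88.0% had a level under 10% and 6.20% a level between 20% and 80%, with a median of 1.35%. Of the 38 protocadherin windows, 4 (10.5%) were under 10% and 31 (81.6%) between 20% and 80%, with a median of 46.0%. A protocadherin window spans at least 3346 bases. Among the 432 windows of that length or longer, protocadherins included, the median was 3.27% and 19.2% lay between 20% and 80%. The median ratio of observed to expected CpGs was 0.482 in the protocadherin windows and 0.629 in all windows. With the ratio limited to 0.3 to 0.8, 30 of 37 protocadherin windows were partly methylated, against 5.55% of the 9728 windows in that range. The median ratios there were 0.484 and 0.604, and the part of CpG content in the gap was not tested. Across windows, higher CpG ratios went with lower levels both in the protocadherins (Pearson r = -0.23, Spearman rho = -0.244, n = 38, or -0.39 and -0.311 over the 33 without C-type genes) and in all windows (r = -0.376, rho = -0.345). These correlations are across genes that share libraries, and they are given as a description.

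**Figure D2:**
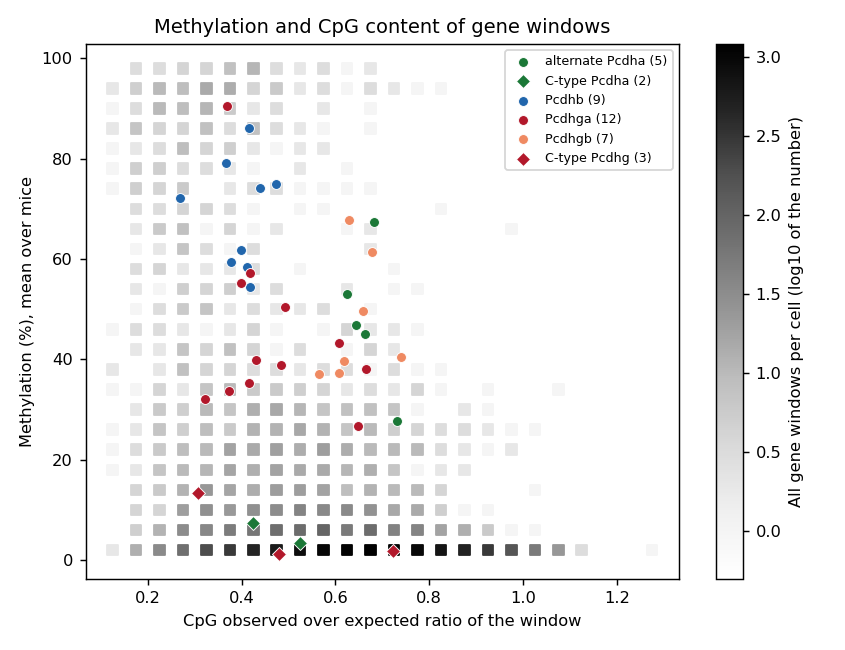
Mean methylation over all mice, in percent, against the CpG observed over expected ratio of each window, with all 12050 windows as grey cells (darker for more windows, log10 scale) and the 38 protocadherin windows as coloured points. The Pcdhb and alternate genes sit between 26.7% and 90.4%, most of them at CpG ratios where the darkest cells lie at the bottom of the scale, and the C-type genes (diamonds) lie between 1.12% and 13.4%.

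Many single cytosines had a partial mean as well. Of the 733 protocadherin cytosines, 349 (47.6%) had a mean between 20% and 80%, against 15.7% of the 762162 CpG cytosines in the table. The individual values of these cytosines were at exactly 0% or 100% in 28.6% of cases, against 33.2% over all partly methylated cytosines. How many of the other values lay near the middle was not counted. A level near the middle can come from a share of methylated cells or from methylation on 1 of the alleles, and these cannot be told apart in bulk tissue. The spread between mice was smaller as well. In windows between 20% and 80%, the median SD between the mice of a group was 9.43 points in the 31 protocadherin windows and 14.5 points in all 747 such windows. The median number of CpGs was 116 in the former and 48 in the latter, and the part of window size in this was not tested.

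Methylation rose along the first exon in Pcdhb and alternate Pcdhg genes. In the alternate Pcdhg genes, 6 cytosines of 1 gene between 1000 and 500 bases before the exon were at 85.4%, cytosines in the 500 bases before the exon were at 14.8% on average (12 cytosines), those in the first 250 bases at 23.2% (43 cytosines of 11 genes), the next 250 bases at 29.7% (65), the following 500 bases at 46.9% (83) and those between 1000 and 1500 bases at 62.3% (97 cytosines of 14 genes). Beyond that the level was 43.3% (41 cytosines of 8 genes) and, after base 2000, 57.1% (7 cytosines of 2 genes). The alternate Pcdha genes had 1 cytosine in the first 250 bases and no steady rise, with 36.2% between 250 and 500 bases (13 cytosines of 3 genes), 25.1% between 500 and 1000 (5 of 3), 62.4% between 1500 and 2000 (2 of 1) and 61.3% beyond (16 of 3). The Pcdhb genes were at 45.7% in the 500 bases before the exon (10 cytosines of 3 genes). Within it they went from 13.4% in the first 250 bases, all 7 cytosines there being of 1 gene, through 35.9% (14 cytosines of 4 genes) to 80.6% between 500 and 1000 bases (13 cytosines of 6 genes) and 77.8% between 1000 and 1500 (34), with 74.7% between 1500 and 2000 (26) and 66.3% beyond (16). Within the exon the C-type genes stayed between 1.54% and 4.62% up to base 2000 and reached 18.8% only beyond, in 13 cytosines of 1 gene. Because different genes feed each distance, the rise was also checked gene by gene.

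**Figure D3:**
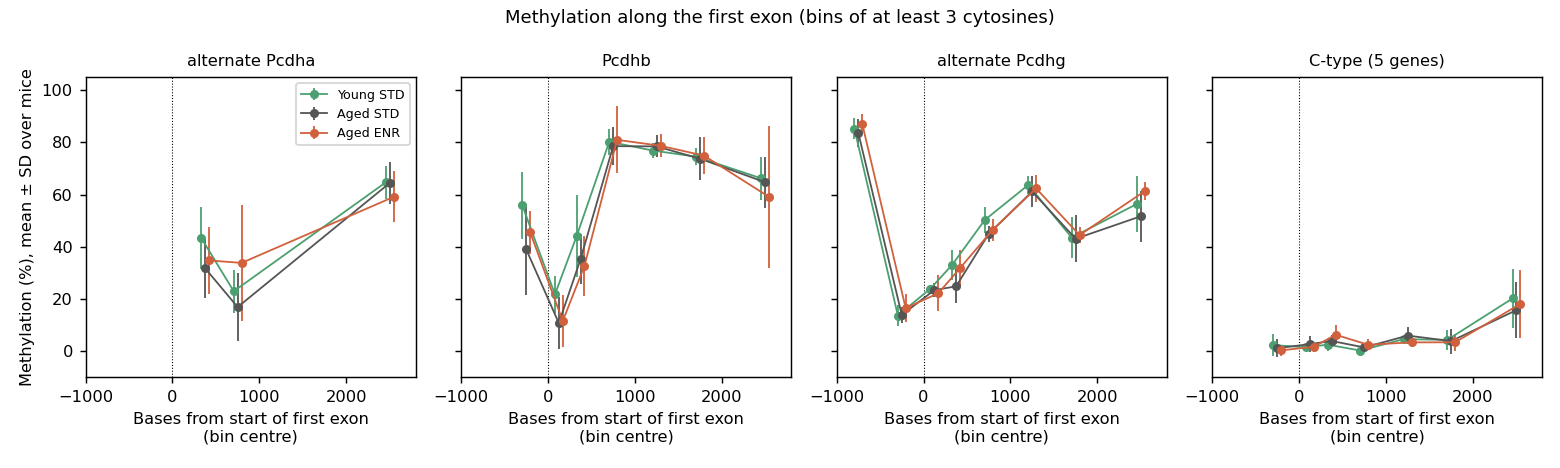
Methylation in percent against the distance in bases from the start of the first exon, in bins of at least 3 cytosines, as mean ± SD over mice for each group (points shifted sideways for clarity). Alternate Pcdhg and Pcdhb genes are low at the start of the exon and rise within the first 1000 to 1500 bases in all 3 groups, and the C-type genes remain near the bottom up to 2000 bases.

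Within single genes the same direction held. In all 13 Pcdhb and alternate Pcdhg genes with at least 3 cytosines in both parts, the part of the exon after base 500 was more methylated on average than the part before, and in 7 of the 13 this was so in every mouse measured in both parts. Pcdhb2 had 21.7% in the first 500 bases and 75.7% later, with the later part higher in 19 of 19 mice. Pcdhb1 had 29.3% and 74.0%, again in 19 of 19 mice. The steepest step was that of Pcdhga2, from 10.4% to 90.8% in 12 of 12 mice, with 5 and 3 cytosines. Pcdhga4 went from 14.999% to 70.8% in 18 of 18 mice. The flattest were Pcdhga9 (32.7% and 39.8%, higher in 11 of 19 mice) and Pcdhgb1 (30.1% and 40.5%, higher in 12 of 19 mice), where the difference was within the spread between mice. Pcdhgc5 was the C-type gene with the clearest step, from 2.58% to 16.1% in 17 of 19 mice.

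The shared gene bodies were also split by position, with high levels between the first exons and mostly low ones after the last. In the Pcdha cluster, the 19 intronic cytosines between first exons averaged 90.01% (range 50.9% to 100%) and the 10 intronic cytosines after the last first exon 16.5% (0.588% to 39.9%). The 2 cytosines in a shared exon of Pcdha averaged 65.2%. In the Pcdhg cluster, the 12 intronic cytosines between first exons averaged 80.5% (44.9% to 100%), and the 9 after the last first exon were all under 10%, the 3 in a shared exon at 1.49%. No cytosine was counted in a body for Pcdhb, whose genes share no exons.

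The first comparison, Aged STD against Young STD, asks whether age changes these genes under standard housing. No protocadherin window passed the test, and the ranges of the groups overlapped in every cluster and subgroup. The alternate Pcdha genes were at 50.3%, 50.6%, 47.5%, 53.7% and 48.0% in the Young STD mice, and between 33.2% and 54.7% with a median of 49.4% in Aged STD mice. The Pcdhga genes were at 40.7%, 42.7%, 44.1%, 51.6% and 46.8% in Young STD mice and between 35.1% and 44.7% with a median of 41.9% in Aged STD mice. The Aged STD mice thus reached lower in both subgroups, with differences of -4.46 points ± 3.77 (SE) for alternate Pcdha and -4.80 ± 2.31 for Pcdhga. With 1 mouse left out the former ranged from -5.98 to -2.40 points, the latter value being that without Aged STD mouse 6. Pcdhb windows were at 66.3% ± 3.49 (SD) in Young STD and 63.3% ± 2.89 in Aged STD mice, a difference of -3.02 points ± 1.84 (SE), and Pcdhg windows at 37.1% ± 2.91 and 34.1% ± 3.03, a difference of -3.00 points ± 1.75. Pcdha windows differed by 0.119 points ± 1.31. Within library series 27 and 37 the differences were -2.17 and -4.22 points for Pcdhb, -1.50 and -5.33 for Pcdhg and 0.804 and -0.898 for Pcdha. The direction depended on the cytosines: those measured in every mouse (10 in Pcdhb) gave 6.66 points for Pcdhb and -2.21 for Pcdha, and the upstream part alone gave -16.9 and -4.89. For Pcdhg the difference was -1.64 points with the composition index in the model and -1.58 without Aged STD mice 3, 4 and 6, and for Pcdha it was 1.32 and 1.54.

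**Figure D4:**
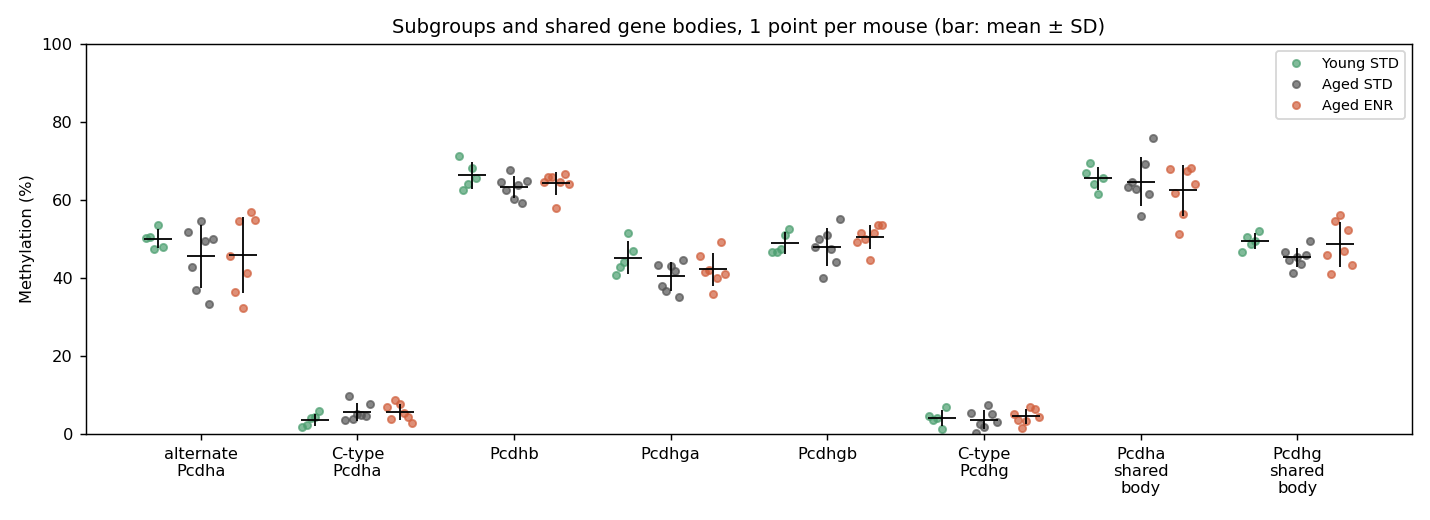
Methylation in percent of the subgroups' windows and of the shared bodies, 1 point per mouse, with the mean ± SD of each group in black. The 3 groups overlap in every subgroup, and C-type genes lie under 10% in all 19 mice.

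By gene, 26 of 38 windows were lower in Aged STD mice (68.4%, against 48.5% of all windows), with a median difference of -3.91 points against 0.0376 points over all windows. Most windows of the genome lie near 0% and can be lower only by little, so the partly methylated ones are the closer background for the size of a difference. Among the 747 windows between 20% and 80%, 72.6% were lower in Aged STD mice with a median of -5.42 points, and among the 31 protocadherin windows in that range 74.2% were lower with a median of -4.59 points. The likeness of these values was not tested. With the composition index in the model, 23 of 38 protocadherin windows were lower and their median was -1.41 points. Without Aged STD mice 3, 4 and 6 it was -2.26 points. By subgroup, 11 of 12 Pcdhga, 6 of 9 Pcdhb, 4 of 5 alternate Pcdha and 3 of 7 Pcdhgb windows were lower, and both C-type Pcdha windows were higher, none of them past the test. Of the C-type Pcdhg windows 2 of 3 were lower, with a median of -0.044 points.

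In the limma test over 11940 windows, no window of any gene was called at an adjusted p (Benjamini-Hochberg) under 0.05 (0.0%), and the smallest adjusted p of a protocadherin window was 0.892. At an unadjusted p under 0.05, 0 of 38 protocadherin windows stood against 4.4% of all windows. None of the 29 protocadherin windows measured in all 12 mice had ranges that did not overlap, against 0.279% of all such windows. Pcdhb5 was nearest. Its Young STD mice had 64.5%, 57.4%, 66.7%, 81.4% and 69.5%, and its Aged STD mice ranged from 3.94% to 65.8% with a median of 51.0% (n = 6), a difference of -22.5 points ± 10.9 (SE; limma adjusted p = 0.892). The Aged STD mice reached lower, with overlap, and without Aged STD mouse 4 the difference was -14.3 points. Pcdha5 stood at 26.0%, 38.7%, 32.9%, 32.9% and 20.98% in Young STD mice and from 6.16% to 31.3% with a median of 22.1% in Aged STD mice, which is -10.4 points ± 5.26 (limma adjusted p = 0.892), or -4.12 points without Aged STD mice 3, 4 and 6 and -5.45 with the composition index in the model. The other windows with the smallest p in their cluster, each at a limma adjusted p of 0.892, were Pcdha1 (-11.4 points ± 8.64), Pcdhb15 (10.7 ± 7.24), Pcdhgc3 (0.913 ± 0.588) and Pcdhga5 (-11.7 ± 8.27). The values of Pcdha1 and Pcdhb15 depended on single mice. Pcdha1 was at -4.87 points without Young STD mouse 5 and -7.42 without Aged STD mouse 3, and Pcdhb15 at 4.002 without Young STD mouse 4. Pcdhb15 did not hold its direction in both library series, with 92.5% in Aged STD against 93.2% in Young STD mice of series 27 and 96.4% against 68.98% in series 37. Pcdhgc3 was at 1.50% against 1.34% and at 2.71% against 0.759%.

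Single cytosines gave the same picture. Of 656 protocadherin cytosines tested, none was called (0.0% of all 527597). With a variance prior that had no trend, 120 cytosines of the table were called, none of them in the clusters. In the main test 28 had an unadjusted limma p under 0.05 against 4.42% of all cytosines, which is 4.27% of the members. Aged STD mice were lower at 20 and higher at 8 of them, against 3.33% and 1.09% of all cytosines. With the composition index in the model the split was 8 lower and 10 higher, against 11165 lower and 13550 higher among all cytosines. Of the 132 protocadherin cytosines measured in all 12 mice, 1 had ranges that did not overlap between the groups, against 0.356% of the 101325 such cytosines.

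That cytosine lies in the first exon of Pcdhb1, on the plus strand at chr18:37265907, 969 bases after its start. The Young STD mice had 58.3%, 48.8%, 43.1%, 21.1% and 56.0%. Aged STD mice ranged from 62.4% to 100% with a median of 100%. The difference was 45.8 points ± 9.28 (SE), in the opposite direction to most partly methylated windows, and its limma adjusted p was 0.742, with 0.133 to 0.784 over the alternatives. The means were 50.05% and 97.6% within library series 27 and 38.5% and 82.6% within series 37. Aged ENR mice ranged from 0% to 100% with a median of 74.2% and covered both other groups. Neighbouring cytosines differed by less. At 6 bases upstream the means were 71.2% ± 26.0 (SD, n = 5) in Young STD and 85.8% ± 18.7 (n = 7) in Aged STD mice, 35 bases downstream 59.5% ± 28.1 and 83.8% ± 18.6, and 16 bases upstream 98.0% ± 4.47 and 95.7% ± 7.52. The Pcdhb1 window as a whole differed by 1.13 points ± 6.81.

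The second comparison, Aged ENR against Aged STD, sets enriched against standard housing in aged mice. In the study, mice of either housing lived together in groups, and the enclosure of each mouse is not known here. Housing can therefore not be told apart from a shared enclosure, and the mice may not be independent units of it. No protocadherin window or cytosine was called. Pcdhg windows were at 36.0% ± 3.01 (SD) in Aged ENR and 34.1% ± 3.03 in Aged STD mice, a difference of 1.87 points ± 1.61 (SE). Pcdhb windows differed by 1.01 points ± 1.55 and Pcdha windows by 0.414 points ± 1.64. With 1 mouse left out these differences ranged from 1.01 to 2.68 points for Pcdhg, 0.342 to 2.06 for Pcdhb and -0.374 to 1.25 for Pcdha. Within library series 27 and 37 these were 1.22 and 2.75 points for Pcdhg, -0.109 and 2.50 for Pcdhb and -0.156 and 1.17 for Pcdha. With the composition index in the model they were 0.774 for Pcdhg, 0.378 for Pcdhb and -0.364 for Pcdha, and without Aged STD mice 3, 4 and 6 0.454, 0.292 and -1.01. The upstream part alone gave 6.93 points for Pcdha and 6.59 for Pcdhb, and cytosines measured in every mouse 3.74 for Pcdha, so neither size nor direction was stable for Pcdha. By gene, 17 of 38 windows had a lower mean in the enriched group (44.7%, against 48.3% of all windows), and 19 of 38 with the composition index in the model. Of the 31 partly methylated protocadherin windows 41.9% were lower, against 32.4% of all 747.

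At an unadjusted limma p under 0.05 stood 2 of 38 windows, against 3.37% of all 11953, and they moved in opposite directions. None of the 11953 was called after adjustment (0.0%), and the smallest adjusted p was 0.938. Pcdha5 was higher in Aged ENR mice, from 18.4% to 55.5% with a median of 32.6%, than in Aged STD mice, from 6.16% to 31.3% with a median of 22.1%. The difference was 13.8 points ± 6.04 (limma adjusted p = 0.938), and within library series 27 and 37 the means were 27.8% against 18.3% and 41.6% against 22.1%. Pcdhb15 was lower in Aged ENR mice, with 56.3% to 95.8% and a median of 79.96% against 80.6% to 104% and a median of 100.8%, a difference of -14.3 points ± 5.91 (limma adjusted p = 0.938). Both pairs of ranges overlapped. Without the 3 Aged STD mice of lowest composition index the Pcdha5 difference was 7.504 points.

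The remaining windows with the smallest p of their cluster had differences of 21.1 points ± 12.6 for Pcdhb5, 2.66 ± 1.25 for Pcdhgc4 and 15.3 ± 9.68 for Pcdhga6, each at a limma adjusted p of 0.938. Pcdhb5 was at 12.8 points without Aged STD mouse 4 and 12.9 without Aged ENR mouse 4, and Pcdhga6 at 9.09 without Aged ENR mouse 3. Without Aged STD mice 3, 4 and 6 they were at 11.9 and 8.84. Within library series 27 Pcdhb5 had 77.7% in Aged ENR and 39.04% in Aged STD mice, against 55.3% and 51.7% in series 37, and Pcdhga6 46.7% and 22.02% against 29.4% and 26.1%. Pcdhgc4 was at 0.17% to 9.93% with a median of 1.14% in Aged ENR mice and between -0.233% and 0.985% in Aged STD mice. Aged ENR mice 5 and 6 were the highest, at 4.87% and 9.93%, and without mouse 6 the difference was 1.48 points. Pcdha4 was -25.4 points ± 13.1 (limma adjusted p = 0.938). It was measured in only 10 mice: 25%, 38.4% and 20.4% in Aged ENR, 73.7%, 50%, 45.2% and 44.5% in Aged STD and 50.4%, 48.0% and 73.3% in Young STD mice. The Aged ENR values lay below all others. Of the 8686 windows measured in all mice of both aged groups, 0.023% had ranges that did not overlap, and Pcdha4 is not among them because of its missing mice. No Young STD or Aged STD mouse of library series 37 had a value for this window of 4 cytosines.

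**Figure D5:**
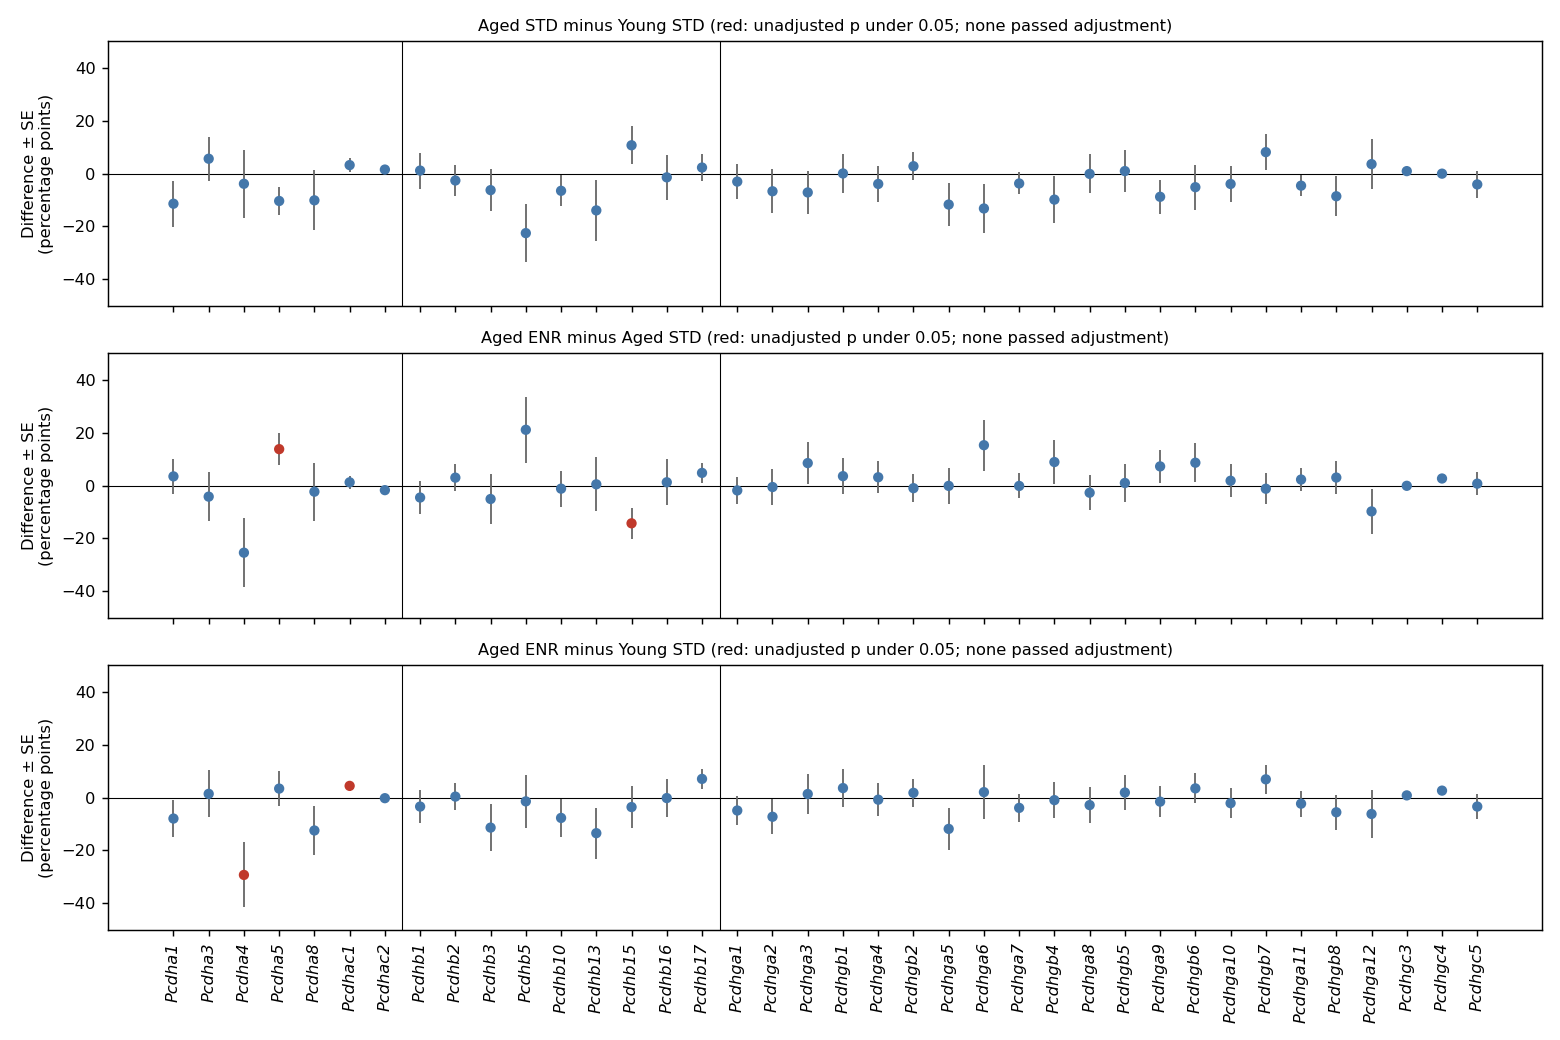
Difference in window methylation ± SE, in percentage points, for each of the 38 genes in the 3 comparisons, with unadjusted limma p under 0.05 in red. There are 0, 2 and 2 such windows, none passed the adjustment, and Pcdhac1, Pcdhac2, Pcdhgc3 and Pcdhgc4 have the shortest error bars.

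Of 655 cytosines tested in this comparison, 20 had an unadjusted p under 0.05 (3.05%, against 2.25% of all 530258), 11 higher and 9 lower in Aged ENR mice, against 1.45% and 0.798% of all. None was called, nor was any in the whole table (0.0%), against 26 in the table and none in the clusters without the trend. None of the 115 measured in all 14 mice had ranges that did not overlap, against 0.0136% of all such cytosines. With the composition index in the model the split was 11 higher and 18 lower, against 7159 higher and 9435 lower among all cytosines. The smallest p among cytosines measured in every aged mouse was that of a Pcdhgb8 cytosine at chr18:37763036. Pcdhgb8 is annotated as a polymorphic pseudogene. Aged STD mice ranged from 29.4% to 82.5% with a median of 65.2% and Aged ENR mice from 66.7% to 100% with a median of 89.4%, a difference of 27.6 points ± 9.41 (limma adjusted p = 0.769). The Young STD mice had 86.7%, 76.2%, 83.6%, 100% and 100%, so that the Aged STD mice were the low group, with a difference from Young STD of -27.8 points ± 10.6 (SE; limma adjusted p = 0.760). A cytosine 43 bases upstream went the other way, with means of 57.7% ± 36.4 (SD), 84.6% ± 18.1 and 62.5% ± 32.5 in the Young STD, the Aged STD and the Aged ENR group. The second cytosine was in Pcdhgb5 at chr18:37731719, with 40.6% to 100% and a median of 73.7% in Aged STD and 78.3% to 100% with a median of 100% in Aged ENR mice (23.3 points ± 8.71, limma adjusted p = 0.769).

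The third comparison, Aged ENR against Young STD, shares mice with both others. The cluster means differed by 0.533 points ± 1.53 (SE) for Pcdha, -2.02 ± 1.85 for Pcdhb and -1.12 ± 1.74 for Pcdhg. With 1 mouse left out these ranged from -0.255 to 1.37 points for Pcdha, -2.96 to -0.778 for Pcdhb and -1.99 to -0.175 for Pcdhg. The direction depended on the setting. Cytosines measured in every mouse gave 7.41 points for Pcdhb and the upstream part alone -10.3, and Pcdhg was at 2.26 points upstream and 0.442 with the composition index in the model. With that index Pcdha was at 1.25 and Pcdhb at -0.715. Lower values in the Aged ENR mice were seen at 24 of 38 windows (63.2%, against 47.2% of all windows, median -1.50 points), and with the composition index in the model at 19 of 38 with a median of -0.00686. Of the 31 partly methylated ones 64.5% were lower in the main test, against 60.2% of all 747. No window was called of 11940 (0.0%), with a smallest adjusted p of 0.900, and 2 of 38 protocadherin windows had an unadjusted p under 0.05, against 3.61% of all. Pcdhac1 was 1 of them. Its Young STD mice had 1.10%, 2.97%, 5.21%, 5.06% and 8.51%, and Aged ENR mice ranged from 3.38% to 13.9% with a median of 7.90%, a difference of 4.41 points ± 1.94 (limma adjusted p = 0.900). The ranges overlapped with each other and with that of the Aged STD mice, from 1.61% to 18.5% with a median of 7.29%. Within library series 27 the means were 11.04% in Aged ENR and 3.09% in Young STD mice, and within series 37 they were 6.24% and 6.79%, so the difference did not hold in both series.

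Pcdha4 was the other, with -29.3 points ± 12.3 (limma adjusted p = 0.900) in 3 mice against 3. Of the 9056 windows complete in these groups, 0.254% had ranges that did not overlap, none of them a protocadherin. The other windows with the smallest p of their cluster, each at a limma adjusted p of 0.900, were Pcdhb17 (7.05 points ± 3.87), Pcdhb13 (-13.5 ± 9.59), Pcdhgc4 (2.62 ± 1.48) and Pcdhga5 (-11.9 ± 7.84). Pcdhb13 was at -5.08 points without Young STD mouse 4 and -3.24 with the composition index, and Pcdhgc4 at 1.43 without Aged ENR mouse 6. Of 659 cytosines, 26 had an unadjusted p under 0.05 against 3.95% of all 522275, 15 higher and 11 lower (1.4% and 2.56% of all), and none was called (0.0% in the table, or 92 in the table and none in the clusters without the trend). Among cytosines measured in every mouse compared, the smallest p was that of a Pcdhga10 cytosine at chr18:37748075, where Young STD mice had 95.2%, 88.7%, 80.4%, 78.6% and 97.3% and Aged ENR mice ranged from 44.2% to 81.9% with a median of 76.7% (-21.2 points ± 8.52, limma adjusted p = 0.776). The opposite strand of that CpG had means of 74.2% ± 16.4 (SD, n = 4) and 54.0% ± 33.2 (n = 5). At 49 bases upstream the means were 57.9% ± 17.8 and 48.8% ± 40.9 in the same groups, and at 42 bases upstream the Aged ENR mean was the higher, 41.5% ± 31.2 against 19.1% ± 19.4. None of these 147 cytosines had ranges that did not overlap, against 0.275% in the table. Next by p came a Pcdhac1 cytosine at chr18:37090537, where Young STD mice had 1.59%, 6.90%, 3.75%, 7.69% and 0% and Aged ENR mice ranged from 0% to 53.3% with a median of 27.3% (19.8 points ± 8.76, limma adjusted p = 0.776). Its Young STD mice were all low and its Aged ENR mice scattered.

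The groups overlapped in the shared gene bodies too. The Pcdha body was at 65.6% ± 2.95 (SD) in Young STD, 64.7% ± 6.28 in Aged STD and 62.5% ± 6.48 in Aged ENR mice over 31 cytosines. Its parts differed from Young STD in opposite directions. After the last first exon it was at 30.8% ± 3.57 in Young STD, 23.3% ± 7.71 in Aged STD and 18.9% ± 13.4 in Aged ENR mice. There 5 of 7 Aged STD and 5 of 7 Aged ENR mice had less than every Young STD mouse. Between the first exons the Pcdha body was at 87.9% ± 4.89, 91.9% ± 9.39 and 91.0% ± 3.25. The Pcdhg body was at 49.5% ± 2.04, 45.3% ± 2.51 and 48.6% ± 5.78 over 21 cytosines. The Aged STD value for the Pcdhg body was lower than that of Young STD by 4.22 points ± 1.37 (SE), and 5 of 7 Aged STD mice had less than the lowest Young STD mouse. Within library series 27 and 37 this difference was -4.10 and -4.52 points. A plain mean over the measured cytosines gave -9.66 points, the median over cytosines 0 points and the cytosines measured in every mouse -1.75 points, and no p is given for such a sum over chosen members. The difference lay between the first exons, with 85.3% ± 3.53 (SD) in Young STD and 77.6% ± 5.12 in Aged STD mice (-7.70 points ± 2.67, SE). After the last first exon it was 0.212 points ± 1.81. There Aged ENR mouse 4 stood apart with 26.5%, against 0.242% to 5.17% in the other Aged ENR mice.

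The genes that control or accompany the clusters were mostly unmethylated at their own first exons. Of 16 named regulators, among them Ctcf, the cohesin subunits Rad21 and Smc3, the cohesin loader Nipbl, the silencing factor Smchd1 and the DNA methyltransferases, 14 had a window, with a median of 1.30%. The 2 highest, Smc1a at 21.2% ± 14.7 (SD, n = 19 mice) and Stag2 at 14.0% ± 9.94, are X-linked. Of 12 protocadherins outside the clusters, 11 had a window, with a median of 1.95% and 8 under 10%. The other 3 were Pcdh11x at 86.7%, Pcdh12 at 74.5% and Pcdh19 at 19.99%, and the 8 low ones ranged from 0.763% (Pcdh20) to 2.61% (Pcdh9). Of 6 partners, 5 had a window, with a median of 1.41%. Celsr1, a planar polarity cadherin, was the highest of these at 26.5% ± 2.20. None of these windows was called in any comparison, and 1 of the protocadherins outside the clusters had an unadjusted p under 0.05, in Aged ENR against Aged STD.

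Window methylation of cell type markers is no measure of expression, so the labelled tissue could not be checked by its markers' expression. Of 5 granule cell genes 4 had a window, all under 10% with a median of 1.23%. The 2 immature neuron windows had a median of 1.39%. Oligodendrocyte markers had 3 windows of 6, with a median of 54.4%, and astrocyte markers 3 of 4, with a median of 13.6%. Microglia and endothelium were represented by 1 window each, at 4.80% and 2.55%, and interneurons by 2, with a median of 2.09%. No marker window was called or reached an unadjusted p of 0.05 in any comparison, and the share of each cell type per mouse was not measured.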

How the data were processed

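RRBS libraries of single dentate gyri were sequenced and processed by the authors. Per the study's methods, reads were trimmed (Trim Galore, Cutadapt) and aligned with Bismark to mm10, and cytosines were kept by the authors when covered by 10 or more reads, below the 99.9% coverage percentile, in no fewer than 3 mice of each group. The submitters' processing notes give Trim Galore 0.4.0, cutadapt 1.8.1, Bismark 0.16.1 and methylKit 1.5.2, and the study's methods give other versions of Trim Galore and Bismark. The deposited values are the methylation percent of each cytosine in each mouse. Read numbers are not in the table used here, so no count model, coverage filter or binomial interval was possible, and precision is given by the spread between mice.

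Windows were made from GENCODE M21 (first exons of protein-coding transcripts, plus Pcdhgb8, and 1000 bases upstream) for all genes. The value of a window, a cluster or a subgroup in a mouse was the mouse term of a least-squares fit of cytosine and mouse terms, which allows for missing cytosines. CpG content was read from the mm10 sequence. Differences were tested with limma 3.58.1 (R 4.3.3; trended variance prior, two-sided, Benjamini-Hochberg over all windows of at least 3 cytosines, or all CpG cytosines), and called at an adjusted p under 0.05, for cytosines also with a difference over 25 points. The code was tested on simulated data. Cluster means received no test.

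Named genes were the C-type genes and Pcdhb1, the highest and lowest window per cluster, per comparison the 2 windows of each cluster with the smallest p, and the 2 cytosines with the smallest p among those measured in every mouse compared. Other genes named in the text were chosen after their values were seen. Members and lists were chosen with earlier results of these data known. Replicate numbers did not pair mice (correlation of same-numbered deviations -0.193 to 0.0699). The highest share of identical partial values in a pair of mice was 0.502%, so each mouse was counted once. First exons of the clusters resemble each other, and mapping between near-identical copies was not tested. Sequences of these genes are not reported here.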

Additional observations from a re-analysis of the deposited data

Results flagged for a closer look

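In 9 of 91 groups of mice, a single mouse lay far from the rest of its group by Dixon's criterion. Chance alone meets it in about 1 of 20 groups when values are independent and normally distributed. The groups here share cytosines, include members picked by their p and hold bounded percentages. The count can therefore not be read against that rate. Over all Pcdhb windows, Aged ENR mouse 4 had 58.0%, and the other mice of its group had 64.2% to 66.7%. The same mouse had a fitted value of 108% at the Pcdhb5 window, where the others had 46.8% to 67.8%. Aged STD mouse 4 had 3.94% at Pcdhb5, against 47.3% to 65.8%. At the Pcdha1 window Aged STD mouse 3 had 46.5%, against 64.6% to 69.4%. Among the C-type genes, Aged STD mouse 5 had 11.9% at Pcdhac2, against 0.566% to 4.88%, and Aged STD mouse 6 had 0.985% at Pcdhgc4, against -0.233% to 0.259%. At the Pcdhb1 cytosine chr18:37265907, Aged STD mouse 5 had 62.4%, against 85.5% to 100%. At the Pcdhgb5 cytosine chr18:37731719, Young STD mouse 1 had 64.9%, against 95.1% to 100%, and Aged ENR mouse 1 had 78.3%, with all others at 100%. The cause of these values was not tested.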

How the results depend on the processing

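No protocadherin window or cytosine was called under any alternative run, and the smallest adjusted p over them (limma, Benjamini-Hochberg) was 0.861 for windows and 0.0979 for cytosines. In the table as a whole, cytosines called numbered 120, 26 and 92 without the variance trend and 34, 0 and 39 with all 3 groups in 1 fit, against 0 in each main test. Replicate numbers did not pair the mice, and the replicate block gave 0 calls. With the composition index in the model, all cytosines with an unadjusted p under 0.05 in Aged STD against Young STD split into 11165 lower and 13550 higher, against 17551 and 5753.

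The cluster differences depended on which cytosines entered. In Aged STD against Young STD, cytosines measured in every mouse gave -2.21 points for Pcdha, 6.66 for Pcdhb and -1.75 for the Pcdhg body, and the upstream part alone gave -4.89 for Pcdha and -16.9 for Pcdhb. In Aged ENR against Aged STD, the former gave 3.74 for Pcdha, and the latter 6.93 for Pcdha and 6.59 for Pcdhb. In Aged ENR against Young STD, they gave 7.41 and -10.3 for Pcdhb, and the upstream part 2.26 for Pcdhg. Plain means gave -13.9 (Pcdha body) and -9.66 (Pcdhg body) in Aged STD against Young STD, and 6.67 and 7.90 in Aged ENR against Aged STD. Series 37 alone gave 5.17 and 2.94 for the Pcdha body against Young STD in Aged STD and Aged ENR mice, and a median over cytosines gave 0 for the Pcdhg body in Aged STD against Young STD. The cause was not tested. The other values of the cluster and gene body differences moved by less than the spread between mice, the counts of called protocadherin windows and cytosines were 0 throughout, and with 1 mouse left out Pcdhb ranged from -3.97 to -1.79 points and Pcdhg from -3.74 to -2.05 in Aged STD against Young STD. Leaving out Aged STD mice 3, 4 and 6 was chosen after seeing the data. A coverage minimum was not run, since read numbers are unknown, and no cytosine lay in more than 1 window.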

Other observations

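The windows with only 1 or 2 cytosines spread widely. They entered the tests per gene only in the alternative with at least 1 cytosine. Their cytosines were part of the cluster and subgroup levels, of the levels along the first exon and of the tests of single cytosines. Pcdha12 had 14.0% ± 33.0 (SD, n = 9) at 1 cytosine and Pcdhb7 67.9% ± 44.1 (n = 12) at 1 cytosine. Pcdhb12 had 26.8% ± 29.2 (n = 15) and Pcdhb14 93.5% ± 9.20 (n = 12), at 2 cytosines each.

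Both strands of a CpG were measured at 80 CpGs of the clusters. Of these, 40 had a level between 20% and 80%, as did 6761 of the 69256 such CpGs of the table. At the partly methylated ones the strands differed within a mouse with an SD of 39.3 points, against 39.1 points in the table. A single value of 1 partly methylated cytosine in 1 mouse is thus imprecise here and elsewhere.

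Beside the clusters, Pcdh11x had a window level of 86.7% ± 7.83 (SD, n = 19) and Pcdh12 of 74.5% ± 19.4, the highest of the protocadherins outside the clusters.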
